A study of Rattus norvegicus with 4 samples.

Results

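Mir143 and Mir145 are neighbouring microRNA genes that are cut from one primary transcript. They were described here as 2 rows of 31038 in counts of ribosome-protected fragments from cultured cells of rat heart. They were picked by name, with their counts in the si3m and siNT libraries already known. Their own difference between the groups is therefore given as a description, with no test. The si3m group had 2 libraries from cells given an siRNA against eIF3m, a subunit of the initiation factor eIF3. The siNT group had 2 libraries from cells given a control siRNA. All cells carried the label NRVM, commonly short for neonatal rat ventricular myocytes, whereas the protocol describes embryonic hearts as their origin, and the labels do not settle which holds. They were grown in DMEM with serum, and had translation halted with cycloheximide before the monosome and polysome fractions were taken. The labels name no strain or genotype and do not say whether the libraries of a group came from separate cultures. p-values then measure only the spread between these libraries, which may be technical.

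MicroRNA genes are copied into long primary transcripts, from which the nuclease Drosha cuts hairpins and the nuclease Dicer cuts short duplexes. One strand of a duplex enters an Argonaute protein and guides it to messenger RNAs that pair with the seed, the stretch from base 2 to base 8. Mature microRNAs are not translated, and the gene counts do not say whether the reads on these rows are mature microRNA or pieces of a longer transcript. miR-143 and miR-145 are best known from vascular smooth muscle, where serum response factor and myocardin drive their transcription, and where they favour the contractile over the proliferative state.

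The mature sequences from RefSeq (assembly GRCr8) show that the pair does not share a targeting code. Both genes matched this table. Capitals mark the seed, and the lines run 5′ to 3′.
rno-miR-143-5p: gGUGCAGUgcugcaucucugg
rno-miR-143-3p: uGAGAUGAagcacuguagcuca
rno-miR-145-5p: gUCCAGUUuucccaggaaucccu
rno-miR-145-3p: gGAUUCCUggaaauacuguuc
The 4 seeds differ from each other. None of the 4 seeds occurred in another microRNA gene among the 724 mature rat sequences of that table, and none of the 4 whole sequences occurred in the hairpin of another gene among its 419 hairpins. These letters therefore gave no other annotated rat microRNA with which mature reads of the pair would be shared.

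The counted rows are taken to span the annotated hairpins, shown here with the mature arms in capitals. Values per hairpin base given below rest on the GRCr8 lengths. The Mir143 hairpin has 105 bases and lies on the minus strand at chr18:57371349-57371453 in GRCr8. The Mir145 hairpin has 88 bases and lies on the same strand at chr18:57369983-57370070, so that Mir143 comes first in the direction of transcription.
Mir143 hairpin: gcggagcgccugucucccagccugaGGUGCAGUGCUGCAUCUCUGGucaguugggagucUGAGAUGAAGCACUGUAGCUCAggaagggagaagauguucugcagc
Mir145 hairpin: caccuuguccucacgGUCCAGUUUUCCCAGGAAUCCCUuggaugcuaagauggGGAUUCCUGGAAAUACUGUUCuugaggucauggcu
The arms of Mir143 run over positions 26 to 46 and 60 to 81 of its hairpin, and those of Mir145 over positions 16 to 38 and 54 to 74. The deposited counts are per gene, so they do not say which arm the reads came from. The names and positions are from GRCr8, whereas the submitters' processing notes name the build rn6. No position was carried over between the builds.

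Both hairpins lie inside Carmn, a long non-coding RNA gene whose older name Mir143hg marks it as the host of the pair. Carmn had no row of its own in the counts, so reads of the primary transcript over a hairpin could not be told apart from reads of the mature microRNA. The start of Carmn is shown because it is the annotated start of the shared transcript, at chr18:57389063-57389362 of GRCr8 on the minus strand, with 250 bases before and 50 after the start. Capitals mark an E-box and a CCAAT box.
Carmn promoter: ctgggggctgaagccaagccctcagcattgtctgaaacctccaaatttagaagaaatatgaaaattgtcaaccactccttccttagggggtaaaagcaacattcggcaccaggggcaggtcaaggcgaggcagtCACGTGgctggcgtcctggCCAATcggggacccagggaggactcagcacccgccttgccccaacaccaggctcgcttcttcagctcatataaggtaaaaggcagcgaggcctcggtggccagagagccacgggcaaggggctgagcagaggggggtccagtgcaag
An E-box, a CCAAT box, a CArG box, an RBPJ core and a TATA box were searched on both strands, and the matches did not overlap. The E-box (CANNTG) matched once, as CACGTG at 116 bases before the start, and 72.1% of the 33469 promoters of that length held an E-box. The CCAAT box (CCAAT) matched once, at 97 bases before the start, against 37.5% of all promoters. The CArG box bound by serum response factor, held by 1.64% of promoters, had no exact match in this window. The core TGGGAA of the Notch effector RBPJ (25.7% of promoters) and the TATA box TATAAA (14.2%) had none either. Near matches, and sites between this window and the hairpins, were not searched.

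Total counts were 8687598 and 6726969 in si3m replicates 1 and 2, against 3924434 and 3835750 in siNT replicates 1 and 2. In each library 94.9% to 97.3% of the counts above 0 were even, so intervals were computed on fragments (deposited counts divided by 2). They cover counting error only, since reads carried no molecular identifiers. The siRNA target Eif3m had 164 ± 37.5 CPM in si3m and 491 ± 57.3 CPM in siNT (SD, n = 2 each; CPM are TMM-scaled counts relative to library size). Of the cardiomyocyte markers listed, Tnni3, Myl7 and Nppa had 0 counts in every library, which allows up to 1.56 CPM in the shallowest library. Summed over 18 cardiomyocyte markers the level was 588 to 602 CPM of the library total in si3m and 954 to 995 in siNT, and 8 of the 18 had at most 6 counts in every library. Atp2a2, a calcium pump of many cell types, made up 462 to 469 CPM of that sum in si3m and 813 to 859 CPM in siNT, and the other 17 markers summed to 120 to 140.0 CPM in si3m and 136 to 141 CPM in siNT. Of those 17, Tnnc1 held 57.1 to 74.3 CPM, Ttn 25.3 to 44.8 CPM and Tnnt2 6.63 to 16.1 CPM over the libraries. Myh6 and Actn2 had at most 10 counts in any library. These markers do not bear out the label NRVM, and the identity of the cells was not tested. The 12 fibroblast markers summed to 12127 to 12453 CPM in si3m and 7689.5 to 7737 CPM in siNT. Col1a1, named after its values were seen, held 6429 to 6663 CPM of that sum in si3m and 3845 to 3943 CPM in siNT. Tcf21 and Fap had 0 counts in every library, and Dcn, Lum and Pdgfra had at most 24 in any. Of 8 fibroblast markers tested, 8 were higher in si3m, where 14.0% of all tested genes were. The 8 endothelial markers summed to no more than 6.26 CPM in any library. The 7 macrophage markers summed to 15.4 to 15.5 CPM in si3m and 31.6 to 35.5 CPM in siNT. Most of that was Cd14, at 14.0 to 14.3 CPM in si3m and 21.9 to 23.5 CPM in siNT.

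Mir143 was the most counted microRNA gene in every library, and its level was lower in si3m. The deposited counts were 28328 and 22220 in si3m replicates 1 and 2, against 48854 and 48334 in siNT replicates 1 and 2, although the si3m libraries were the deeper ones. On the TMM scale these were levels of 3336 and 3437 CPM in si3m and of 12159.9 and 12279.4 CPM in siNT. Both si3m libraries lay far below both siNT libraries, and libraries of one group were close to each other. Mir143 averaged 3386 ± 71.6 CPM in si3m and 12219.7 ± 84.5 CPM in siNT (SD, n = 2 each), a fold change of 3.61-fold lower in si3m (log2 -1.85, SE 0.020).

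As a share of all counts, Mir143 took 0.326% of si3m replicate 1 (95% Wilson interval 0.321% to 0.331%) and 0.330% of si3m replicate 2 (0.324% to 0.337%). It took 1.24% of siNT replicate 1 (1.23% to 1.26%) and 1.26% of siNT replicate 2 (1.24% to 1.28%). Its row ranked 14 and 13 by count among all rows in the si3m libraries, against 2 in both siNT libraries. A single microRNA gene thus held more reads than all but 1 row of the control libraries.

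Mir145 was lower in si3m too, by a smaller factor. Its deposited counts were 1500 and 1118 in si3m replicates 1 and 2, against 1260 and 1308 in siNT replicates 1 and 2. Scaled for depth, the levels were 177 and 173 CPM in si3m and 314 and 332 CPM in siNT. The unscaled counts of the groups overlapped, whereas the scaled levels did not. Mir145 averaged 175 ± 2.62 CPM in si3m and 323 ± 13.2 CPM in siNT (SD, n = 2 each), a fold change of 1.85-fold lower in si3m (log2 -0.89, SE 0.059). It took 0.0173% and 0.0166% of all counts in si3m and 0.0321% and 0.0341% in siNT.

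**Figure D1:**
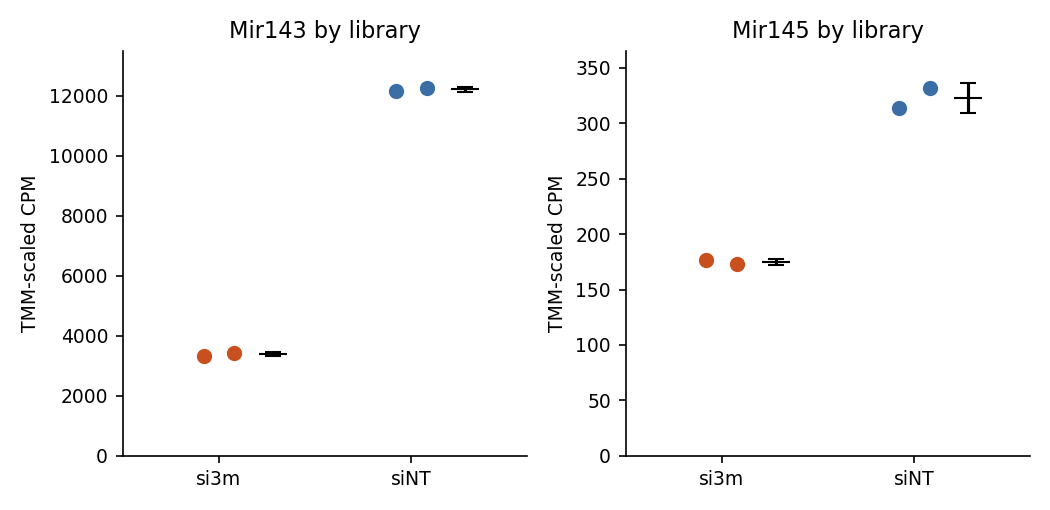
TMM-scaled CPM of Mir143 (left) and Mir145 (right) in each library, with si3m in orange and siNT in blue; the bar beside each pair is the mean with its SD (n = 2). Mir143 lies at 3336 and 3437 CPM in si3m against 12159.9 and 12279.4 CPM in siNT, and Mir145 at 177 and 173 CPM against 314 and 332 CPM.

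For both genes the scaled groups did not overlap, with si3m lower. Of the 12672 genes with enough counts to be tested, 63.9% had groups that did not overlap, 31.3% with si3m lower and 32.6% with si3m higher. Since the pair was picked with this contrast already known, nothing is read from it. By log2 fold change, Mir143 ranked 123 and Mir145 ranked 722 from the lowest of all tested genes, so that 0.963% and 5.69% of tested genes had a lower value. In bulk libraries, fewer cells of a type and less RNA per cell cannot be told apart. For the protein-coding genes below, counts of ribosome-protected fragments also do not separate RNA level from the number of ribosomes per RNA.

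In si3m the higher Mir143 level exceeded the lower by 3.03%, and in siNT by 0.982%. In si3m the log2 difference of replicate 2 over replicate 1 was 0.04 with a counting SE of 0.018, and in siNT it was 0.01 with a counting SE of 0.013. For Mir145, which had 559 to 750 fragments per library, the spread was 2.14% in si3m and 5.96% in siNT. Its log2 differences between replicates, -0.03 in si3m and 0.08 in siNT, were close to or under their counting SE of 0.081 in both groups.

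The ratio of the members to each other was lower in both si3m libraries than in both siNT libraries. Per base of hairpin, Mir143 had 15.8 and 16.7 times the count of Mir145 in si3m replicates 1 and 2, against 32.5 and 31.0 times in siNT replicates 1 and 2. The exact 95% intervals were 14.7 to 17.1 and 15.3 to 18.2 in si3m, and 30.0 to 35.2 and 28.7 to 33.5 in siNT. These intervals cover counting error within a library and not the spread between cultures. The mean log2 ratio per base was 4.02 ± 0.052 in si3m and 4.99 ± 0.049 in siNT (SD, n = 2 each), so that the ratio was 1.95-fold lower in si3m (log2 -0.97). This ratio is taken within a library, so no scaling between libraries enters it. The ratio rests on values already known when the pair was picked, so no test is given. Mir145 made up 4.91% ± 0.169 of the reads of the pair in si3m and 2.57% ± 0.0853 in siNT (SD, n = 2 each).

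**Figure D2:**
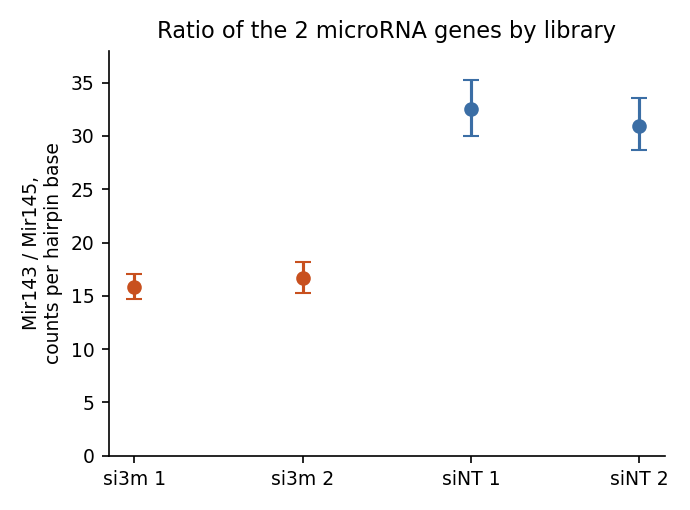
Ratio of Mir143 to Mir145 in counts per hairpin base for each library, si3m in orange and siNT in blue; bars are exact 95% binomial intervals on fragments. The si3m libraries lie at 15.8 and 16.7 and the siNT libraries at 32.5 and 31.0, with intervals that do not meet.

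MicroRNA genes as a class were lower in si3m, and the pair was set beside them. Of 450 rows whose symbol begins as a microRNA gene's, 232 had 0 counts in every library and 120 were tested, the pair included. Of the other 118, 76 fell in si3m at an adjusted p of 0.05 (quasi-likelihood test of edgeR, Benjamini-Hochberg), 1 rose and 41 did not pass. That is 64.4% lower, where 13.9% of all tested genes were lower and 14.0% higher. The median log2 fold change of these 118 was -1.17, against 0.02 over all tested genes. Of the rows counted here, Mir155hg, is a host gene and not a microRNA gene. Without it 75 of 117 fell (64.1%), with the median still at -1.17. All microRNA rows together took 1.02% and 1.19% of the si3m counts and 3.15% and 3.22% of the siNT counts.

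Within this class Mir143 and Mir145 lay on opposite sides of the middle. Mir143 had the 35th lowest log2 fold change of the 120 tested microRNA genes, and 28.8% of the other 118 were at least as low. Mir145 was the 81st lowest, and 66.9% of the others were at least as low. Without the host gene row these shares were 28.2% and 66.7%. Accordingly, Mir143 took 31.9% and 27.7% of all microRNA counts in si3m, against 39.5% and 39.1% in siNT. Mir145 took a larger part of them in si3m, 1.69% and 1.39%, than in siNT, 1.02% and 1.06%. Per hairpin base Mir143 ranked first among 449 microRNA rows in all 4 libraries, while Mir145 ranked 9 and 12 in si3m and 14 in both siNT libraries. With Mir143 left out, microRNA rows still took 0.696% and 0.864% of the si3m counts and 1.90% and 1.96% of the siNT counts.

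Other abundant microRNA genes gave the scale of these values. Mir148a, the next by mean level, fell to 2813 ± 292 CPM in si3m, against 4662 ± 118 CPM in siNT (log2 -0.73, SE 0.047, edgeR adjusted p = 1.23e-08). Mir7a-1 and Mir7a-2, copies whose mature sequence is shared so that their separate counts are uncertain, fell by 2.22 and 2.27 on the log2 scale. Mirlet7i, of the let-7 family, fell to 417 ± 108 CPM in si3m, against 1146 ± 30.8 CPM in siNT. The genes next to Mir145 by mean level were Mir664-2, which fell by 1.21 on the log2 scale, and Mir30a, which fell by 2.58. The 1 gene called higher, Mir222, named here after its value was seen, had counts of 24 and 402 in si3m against 14 and 20 in siNT, so that si3m replicate 2 alone carried it. Mir140 (156 and 630 in si3m replicates 1 and 2) and Mir221 (206 and 582), also named after their values were seen, had more counts in replicate 2 too. Mir143 and Mir148a had fewer there, so the 2 si3m libraries differed in the make-up of their microRNA reads.

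**Figure D3:**
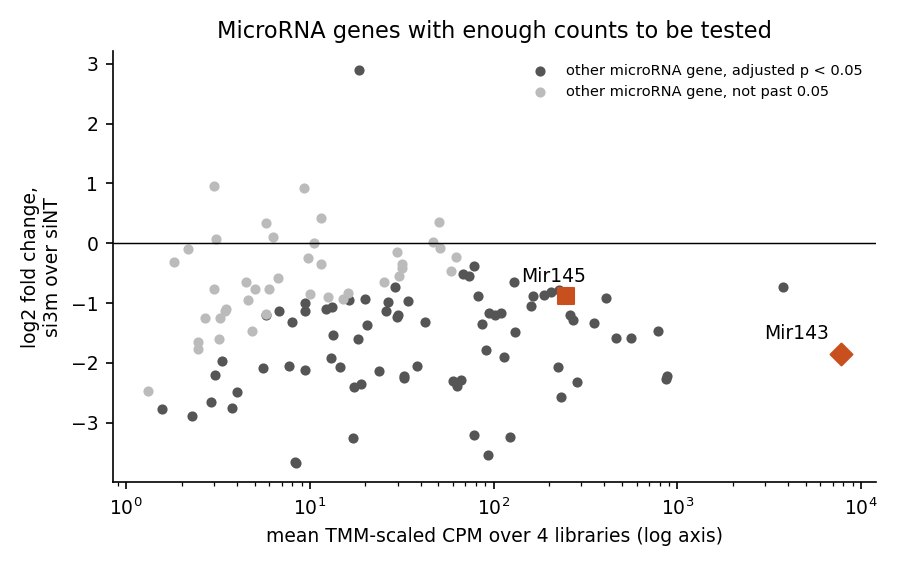
Log2 fold change (si3m over siNT) against mean TMM-scaled CPM on a log axis for the 120 tested microRNA rows, the host gene row included; dark points passed an edgeR adjusted p of 0.05, light points did not, and the pair is in orange. Mir143 lies farthest to the right at -1.85, and Mir145 at -0.89, above the median of -1.17 of the others.

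The gap within the pair was set beside that within other microRNA clusters. Of 27 further clusters listed, 11 had at least 2 tested members. The spread of log2 fold change within a cluster ran from 0.08 for Mir30d and Mir30b to 2.53 for Mir221 and Mir222, where SE were large, with a median of 0.68. For Mir143 and Mir145 it was 0.97 (SE 0.062), wider than in 6 of the 11 and narrower than in 5. The SE of the other spreads ran from 0.22 to 0.99, so this order is uncertain. A spread from lowest to highest also widens with noise and with more members. In at least 8 of the 11, a tested member had a mature sequence that the RefSeq table also gives for another gene. The separate counts and spreads of these clusters are uncertain. Mir30d, Mir30b and Mir181b2 were not matched to that table, so sharing was not checked for them. In 10 of the 11 every tested member was lower in si3m in sign.

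**Figure D4:**
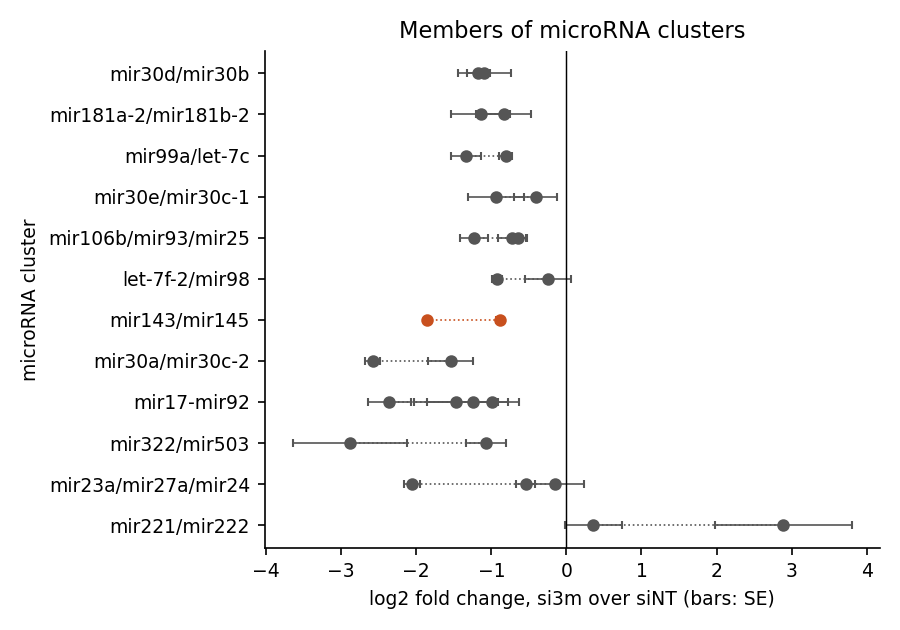
Log2 fold change (si3m over siNT, bars are SE) of each tested member of 12 microRNA clusters, ordered by the spread within the cluster. Mir143 and Mir145, in orange, are 0.97 apart at -1.85 and -0.89, with the other clusters between 0.08 and 2.53.

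Genes on either side of the pair on chromosome 18 had log2 fold changes nearer 0. Only 0.963% and 5.69% of tested genes had a lower value than Mir143 and Mir145, so nothing is read from this. Csnk1a1, casein kinase 1 alpha and the nearest tested gene on the Mir145 side, fell slightly to 281 ± 7.14 CPM in si3m, against 325 ± 13.2 CPM in siNT (log2 -0.21, SE 0.058, edgeR adjusted p = 0.0134). Its call was lost without si3m replicate 1 (adjusted p = 0.104) and without siNT replicate 2 (adjusted p = 0.0838). Pcyox1l (log2 0.34, SE 0.35, adjusted p = 0.510) and Grpel2 (log2 0.33, SE 0.20, adjusted p = 0.238) did not pass. Il17b and Mir378 had 0 counts in all libraries, and Arhgef37 had at most 6.

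The genes closest in pattern were found by the distance between log2 CPM profiles over the 4 libraries, each centred on its own mean, among 7775 genes with a mean of at least 10 CPM. This is a description over 4 libraries. Closest to Mir143 were Ccdc85c (distance 0.15), Hsph1 (0.18), Polg (0.19), Phykpl (0.20) and Slc27a2 (0.22). Ccdc85c, for example, had 74.7 and 70.8 CPM in si3m and 240 and 242 CPM in siNT. Closest to Mir145 were Rb1cc1 (0.018), Per1 (0.024), Runx1 (0.032), Coro7 (0.035) and Itgb1 (0.047), the last with 3421 and 3366 CPM in si3m and 6253 and 6329 CPM in siNT. At a distance of 0.97, Mir145 ranked 183 by likeness to Mir143, and Mir143 ranked 4165 by likeness to Mir145. With libraries of a group this close, the distance is nearly the gap in log2 fold change, also 0.97 for the pair. These ranks therefore restate the contrast that was known when the pair was picked and add no separate result.

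Genes of the smooth muscle contractile apparatus, the programme with which the pair is best known to be expressed, went both ways. Of 23 listed, 22 were tested, 5 were higher in si3m, 5 were lower and 12 did not pass. That is 45.5% called, against 27.8% of all tested genes, and the median log2 fold change was -0.03, against 0.02 over all. Under total count scaling 2 were higher, and without si3m replicate 1 there were 3. Acta2, smooth muscle alpha actin, rose to 2991 ± 21.2 CPM in si3m, against 2351 ± 26.1 CPM in siNT (log2 0.35, SE 0.028, edgeR adjusted p = 2.02e-07). Flna, the actin crosslinker filamin A, fell to 2295 ± 17.5 CPM, against 2824 ± 30.0 CPM in siNT (log2 -0.30, SE 0.029). Cald1, the actin-binding caldesmon, fell by 0.56 on the log2 scale (SE 0.050), and Tpm2, beta tropomyosin, fell by 0.38 (SE 0.084). Tagln, the calponin relative SM22 alpha, fell by 0.23 (SE 0.050), with adjusted p = 0.0550 without si3m replicate 1.

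Vcl and Pdlim7 rose and lost their call in part of the settings. Vcl, the adhesion protein vinculin, was higher by 0.17 on the log2 scale, with adjusted p = 0.182 under total count scaling and 0.0504 without si3m replicate 1. Pdlim7, a cytoskeletal scaffold, rose by 0.62, with adjusted p = 0.0703 in DESeq2, 0.0868 without si3m replicate 1 and 0.105 without si3m replicate 2. Myh11, smooth muscle myosin and the defining marker of mature smooth muscle, was scarce, with counts of 62 and 36 in si3m and 12 and 18 in siNT. Cnn1, calponin 1, averaged 13.4 ± 4.05 CPM in si3m and 20.1 ± 3.27 CPM in siNT (SD, n = 2 each). Neither passed (adjusted p = 0.219 and 0.126), both being named after their values were seen, and Cnn1 passed without siNT replicate 2 (adjusted p = 0.0304).

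Markers of smooth muscle and mural cells were close in summed level only with Acta2 included. The 12 markers summed to 4128 and 4132 CPM of the library total in si3m replicates 1 and 2, against 4006 and 3996 CPM in siNT replicates 1 and 2. Most of that sum was Acta2, at 2909 and 2889 CPM in si3m and 2426 and 2394 CPM in siNT. Of 10 tested, 2 were higher (20%, against 14.0% of all tested genes) and 4 lower (40%, against 13.9%). The other 11 markers summed to 1219 and 1244 CPM in si3m, against 1581 and 1602 CPM in siNT, so that the list without Acta2 was lower in both si3m libraries. The pericyte marker Rgs5 had at most 6 counts in any library, and Cspg4 at most 14. The part that cell composition has in the levels of the pair was not tested.

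Factors known to act on transcription or processing of the pair counted more members higher than lower in si3m under TMM scaling. Of 20 tested, 6 were higher (30.0%, against 14.0% of all tested genes), 1 was lower (5.00%, against 13.9%) and 13 did not pass, with a median log2 fold change of 0.20. Under total count scaling the counts were equal, with 5 higher and 5 lower, and DESeq2 called 5 higher and 0 lower. Srf, serum response factor, rose to 72.6 ± 1.98 CPM in si3m, against 40.5 ± 1.65 CPM in siNT (log2 0.84, SE 0.13, edgeR adjusted p = 2.00e-04). Its coactivators Myocd (myocardin) and Mrtfa rose by 0.40 and 0.41, both named after their values were seen. Myocd lost its call in DESeq2 (adjusted p = 0.125), under total count scaling (0.0844), without si3m replicate 1 (0.0974), without si3m replicate 2 (0.184) and without siNT replicate 2 (0.0870). Whether these factors bear on the levels of the pair was not tested.

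Of the Notch pathway, the mural receptor Notch3 rose to 48.8 ± 1.62 CPM in si3m, against 22.9 ± 3.53 CPM in siNT (log2 1.09, SE 0.18, edgeR adjusted p = 2.29e-04). Rbpj, the DNA-binding effector of Notch, rose by 0.30. Notch2 (log2 0.17, adjusted p = 0.101) did not pass, and did so without siNT replicate 2 (0.00467) and with no low-count filter (0.0376). The ligand gene Jag1 (log2 -0.17, adjusted p = 0.0645) did not pass either, and did so under total count scaling (0.00951), on fragments (0.0429) and with the stricter filter (0.0404). Tgfbr2, a receptor of TGF-beta, rose to 181 ± 2.22 CPM in si3m, against 118 ± 3.27 CPM in siNT (log2 0.62, SE 0.076). Smad4, the shared SMAD partner and the 1 factor called lower, named after its value was seen, had a log2 fold change of -0.25. Its call was lost in DESeq2 (adjusted p = 0.0808), without si3m replicate 1 (0.0632), without si3m replicate 2 (0.120) and without siNT replicate 1 (0.144).

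The reported targets of miR-143, taken from work in several species and cell types, counted more members lower than higher. Of 18 listed, 15 were tested, 2 were higher (13.3%, against 14.0% of all tested genes), 5 were lower (33.3%, against 13.9%) and 8 did not pass, with a median log2 fold change of -0.10. Vcan, the matrix proteoglycan versican, rose to 225 ± 16.7 CPM in si3m, against 111 ± 9.79 CPM in siNT (log2 1.02, SE 0.083, edgeR adjusted p = 2.01e-07). Bcl2, an inhibitor of apoptosis, fell to 3.98 ± 1.69 CPM in si3m, against 17.9 ± 2.04 CPM in siNT (log2 -2.13, SE 0.34), with counts of 44 and 18 in si3m and 66 and 76 in siNT. Osbpl8, an oxysterol-binding protein, fell by 0.62, Mdm2, the ubiquitin ligase of p53, by 0.27, and Hk2 (hexokinase 2, named after its value was seen) by 0.60. Fosl2, an AP-1 subunit, fell by 0.91, a call lost in DESeq2 (adjusted p = 0.0861), without si3m replicate 1 (0.228) and without siNT replicate 2 (0.0843). Ptgs2, cyclooxygenase 2, did not pass (log2 -0.10, adjusted p = 0.212), and passed under total count scaling (0.0287).

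The reported targets of miR-145 were split nearly evenly. Of 28 listed, 22 were tested, 4 were higher (18.2%, against 14.0% of all tested genes), 3 were lower (13.6%, against 13.9%) and 15 did not pass, with a median log2 fold change of 0.08. Klf4, the zinc finger factor through which miR-145 is best known to act on smooth muscle, rose to 221 ± 8.79 CPM in si3m, against 151 ± 8.59 CPM in siNT (log2 0.55, SE 0.071, edgeR adjusted p = 3.08e-05). Srgap2, a GTPase-activating protein of the cytoskeleton, rose by 0.76, and Tgfbr2, also among the factors above, by 0.62. Ctnnd1, p120 catenin, rose by 0.33, with adjusted p = 0.0880 without siNT replicate 2. Rock1, a kinase of actin contraction, fell to 178 ± 1.79 CPM in si3m, against 279 ± 8.05 CPM in siNT (log2 -0.65, SE 0.060). Igf1r, the receptor of insulin-like growth factor 1, fell by 0.35, and Bnip3, a mitophagy receptor named after its value was seen, by 0.48. Myc did not pass (log2 0.08, adjusted p = 0.423) and turned to -0.004 under total count scaling.

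In the main edgeR fit, genes of the microRNA pathway itself were called about as often as genes at large, at 25% against 27.8%. Of 16 tested, 3 were higher (18.8%, against 14.0% of all tested genes), 1 was lower (6.25%, against 13.9%) and 12 did not pass, with a median log2 fold change of -0.18. Dgcr8, the partner of Drosha, rose by 0.56 on the log2 scale (SE 0.14), with adjusted p = 0.0746 without si3m replicate 1. Prkra, a partner of Dicer, rose to 39.4 ± 5.48 CPM in si3m, against 18.4 ± 6.31 CPM in siNT, and Ran, the GTPase of nuclear export, rose by 0.26. Tnrc6a, a silencing partner of Argonaute, fell to 132 ± 2.93 CPM in si3m, against 208 ± 4.11 CPM in siNT (log2 -0.66, SE 0.071, edgeR adjusted p = 4.29e-06). Its relative Tnrc6b (log2 -0.18, adjusted p = 0.0597) and the helicase Ddx5 (log2 -0.10, adjusted p = 0.0669) did not pass. Both passed with DESeq2 size factors (adjusted p = 0.0482 and 0.0463). The list had 4 genes lower in that setting, 5 on fragments, 6 with the stricter filter and 7 under total count scaling, with 3 higher in each. Dicer1, Ago3 and Tnrc6c, named after their values were seen, had log2 fold changes of -0.40, -0.45 and -0.53. None of them passed in the main edgeR fit (adjusted p = 0.0548, 0.0573 and 0.0583), and each passed in part of the other settings.

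**Figure D5:**
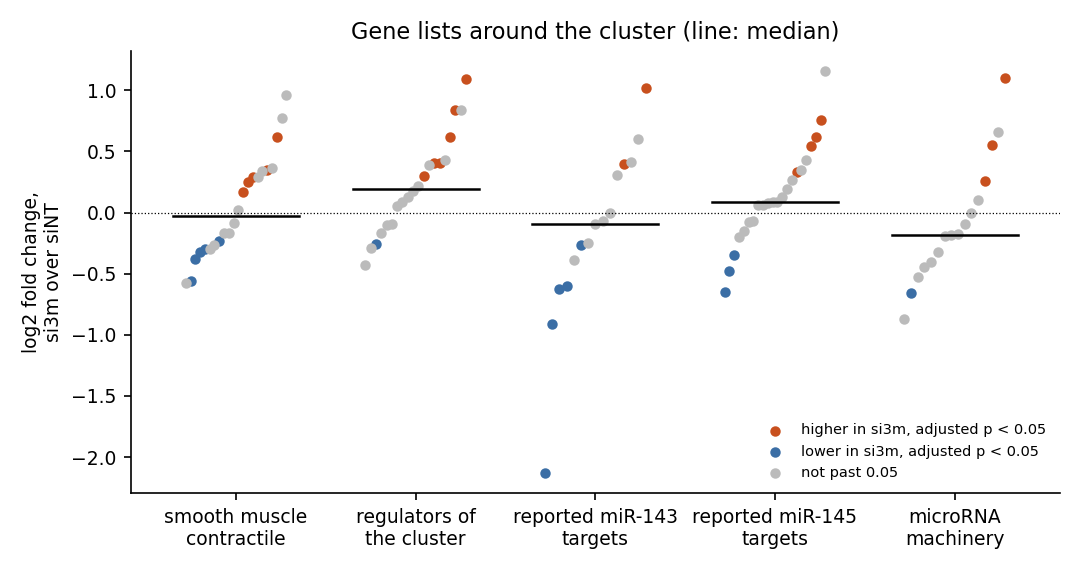
Log2 fold change (si3m over siNT) of each tested gene of 5 lists, one point per gene in rank order, orange where higher and blue where lower at an edgeR adjusted p of 0.05; the black line is the list's median. The medians are -0.03, 0.20, -0.10, 0.08 and -0.18 from left to right, against 0.02 over all tested genes.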

How the data were processed

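Ribosome-protected fragments were measured in 2 si3m and 2 siNT libraries. The authors deposited 1 table per library with raw counts for each gene, all whole numbers. Per the submitters' processing notes, the build was rn6 and the tools included featureCounts, HISAT2 2.2.1, Trimmomatic 0.40, DESeq2 and limma. Their roles, the annotation, strandedness and the treatment of multiply mapping reads were not given in the sources used here, so overlapping and antisense genes cannot be told apart.

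Counts of all 31038 rows were fitted with edgeR 4.0.16 in R 4.3.3: filterByExpr (minimum count 10), TMM scaling, then glmQLFit and the two-sided glmQLFTest. p-values were adjusted by Benjamini-Hochberg over the 12672 genes tested, with a threshold of 0.05. SE were derived from the F statistic. The test was checked on simulated counts. A spreadsheet had turned 27 symbols into dates, and these rows stayed in the fit unnamed. A count of 0 allows up to 3 fragments, or 6 deposited counts.

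The members and lists were chosen with earlier results of these data known. From each list the text names the 4 tested genes of highest mean CPM and up to 3 further genes past the threshold with the largest change. Of microRNA genes it names the 5 of highest mean CPM and those next to a member in level, of likeness the 5 closest genes, and of neighbours the nearest 3 with a row on each side. Others are said to be named after their values were seen. 1 gene that this rule names is not reported here. Gene symbols of the lists were matched to rows directly or through RefSeq synonyms. Alternatives were other scaling, other filters, a replicate block, DESeq2 1.42.0, fragments, thinned counts and leaving out each library.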

Additional observations from a re-analysis of the deposited data

How the results depend on the processing

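Mir143 and Mir145 were lower in si3m under all 13 alternatives that refitted them. Of 203 values recomputed, 178 kept their sign and moved by less than the replicate spread, or by no more than 1.5 times for counts, and 25 moved further. Total count scaling gave log2 -1.93 for Mir143 and -0.97 for Mir145. Leaving out each library in turn gave -1.86 to -1.82 for Mir143 and -0.92 to -0.84 for Mir145, one group then having a lone library that is assumed to vary like the others. Total count scaling turned the split of all genes, 1771 higher and 1757 lower, into 1428 higher and 2214 lower. It left 2 smooth muscle contractile genes higher in place of 5, and leaving out each library gave 3 to 6.

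Regulators called lower, 1 in the report, numbered 3 with the stricter filter of 50 counts in 2 samples, 2 with DESeq2 size factors, on fragments or with thinned counts, 5 with total count scaling, 0 in the DESeq2 test, and 0 to 1 without each library. MicroRNA machinery genes called lower, 1 in the report, numbered 6 with the stricter filter, 4 with DESeq2 size factors, 5 on fragments, 2 with no low-count filter, 3 with thinned counts, 7 with total count scaling, and 1 to 3 without each library. The cause was not tested. Replicate numbers are shared between the groups, but same-numbered libraries did not deviate together (correlation -0.023). A replicate block moved the machinery genes called lower to 2 and all genes to 1851 higher and 1843 lower, and left Mir143 at -1.85. Leaving out the host gene row, an alternative chosen after seeing the data, gave 75 microRNA rows lower in place of 76. Mir145 rested on 559 to 750 fragments per library, and Myh11 on 12 to 62 deposited counts.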

Other observations

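Mural markers went both ways: Notch3 and Acta2 rose, as given above, and Tagln and the 3 genes that follow fell. Pdgfrb, the PDGF receptor of mural cells and fibroblasts, fell to 356 ± 2.91 CPM in si3m, against 467 ± 16.9 CPM in siNT (SD, n = 2 each), a log2 fold change of -0.39 (SE 0.055, adjusted p = 6.00e-05 in edgeR). Abcc9, the sulfonylurea receptor of the vascular potassium channel, fell to 131 ± 7.54 CPM, against 181 ± 0.576 CPM in siNT (log2 -0.47, SE 0.076), and Mcam, an adhesion molecule of smooth muscle and endothelium, fell to 46.9 ± 0.660 CPM, against 75.4 ± 7.44 CPM in siNT (log2 -0.68, SE 0.13). Kcnj8, the pore subunit that pairs with Abcc9, averaged 8.24 ± 3.34 CPM in si3m and 7.55 ± 1.53 CPM in siNT and did not pass (adjusted p = 0.820). These genes were chosen after their values were seen.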
